A study of Mus musculus with 3 samples.

Results

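The genes described here encode splicing factors of 6 name groups, and their transcripts were followed in RNA recovered with YTHDF2. They were all genes of the count table whose symbol begins with Srsf, Hnrnp, Snrp, Sf3a, Sf3b or Prpf, apart from 5 symbols that carry "-ps", the mark of a pseudogene. The rule gave 66 of 49997 genes, namely 11 Srsf, 20 Hnrnp, 13 Snrp, 3 Sf3a, 6 Sf3b and 13 Prpf genes. The values came from 3 RIP-seq libraries of E14 mouse embryonic stem cells (ESCs), 1 input library and 2 YTHDF2 immunoprecipitation (IP) libraries. All 3 libraries were from cells treated with doxycycline (Dox) for 24 h, in a line that, per the study, holds a Dux transgene switched on by Dox and a tdTomato reporter driven by the Mervl promoter. Untreated cells, a control antibody and a second input were not among the libraries analysed. Whether the 2 IP libraries came from separate cultures is not given in the labels. Each p-value thus rests on the spread between these 2 libraries only, estimated for each gene with help from the other genes.

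YTHDF2 is a cytoplasmic reader of N6-methyladenosine (m6A), a mark that is written within short motifs, often near the stop codon, and it brings bound mRNAs to the CCR4-NOT deadenylase for decay. The members divide the work of pre-mRNA splicing. SR proteins (Srsf) bind exonic enhancers and help splice sites to be recognised, and hnRNPs coat nascent RNA and often oppose exon use. Sm proteins, encoded by part of the Snrp genes, form the ring around the spliceosomal U RNAs, and other Snrp proteins belong to the U1 or U2 particle. The SF3A and SF3B complexes belong to the U2 particle at the branch point, and PRPF proteins act in the U4/U6.U5 particle, in the U1 particle or in later remodelling. Several SR and hnRNP genes are known to adjust their own level through alternative exons that send the mRNA to nonsense-mediated decay.

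Library totals were 36986994 counts for the input, 35259827 for IP replicate 1 and 35888743 for IP replicate 2. All 10 ESC marker genes checked were present, at 224 to 1806 CPM (counts scaled to a common library total) in the input. Of 6 fibroblast markers, 2 were at 0 and the highest, Thy1, was at 26.9 CPM. The 4 primitive endoderm markers were at most at 3.97 CPM and the 3 neural markers at most at 10.1 CPM. Of 3 trophectoderm markers, Tfap2c stood at 79.97 CPM, and the defining markers Cdx2 and Elf5 were at 0.0541 CPM and at 0.

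To show what YTHDF2 could meet in these transcripts, the GGAC closest to the stop codon was taken from 6 of them, 3 that were higher and 3 that were lower in IP than in the input. GGAC is the core of the best known m6A motif, and in each 24-base window it stands in capitals.
Sf3b5: ggccgcccgcGGACaagcccgagg
Hnrnpa0: cagcaacagtGGACcgtacagagg
Srsf9: tagagtcttaGGACattttttttc
Hnrnpll: tacaagtgctGGACaagcatctaa
Srsf7: cagaaagaatGGACtgaagttctc
Hnrnpd: caggcgaggtGGACatcaaaatag
The windows were read 5′ to 3′ from RefSeq transcripts on GRCm38.p6, the assembly of mm10. The window of Sf3b5 lies in the coding sequence of its single exon (chr10:13008852-13008875, plus strand), and that of Hnrnpa0 likewise (chr13:58127433-58127456, minus strand). The window of Srsf9 lies in the 3′UTR, in exon 4 of 4 (chr5:115332800-115332823, plus strand). The GGAC of Hnrnpll, in exon 10 of 13 (window chr17:80034125-80034148, minus strand), and that of Hnrnpd, in exon 8 of 9 (window chr5:99962561-99962584, minus strand), are coding. That of Hnrnpll lies 301 bases before the stop codon. The GGAC of Srsf7, in exon 8 of 8 (window chr17:80201541-80201564, minus strand), is coding too and stands directly before the stop codon, so its window runs on into the 3′UTR. Each window was found by a search for GGAC, so the motif in all of them does not bear on which transcripts were higher or lower. They are examples and not a ranking, as Prpf4 was higher than Srsf9 and Hnrnph2 was lower than Hnrnpd. Whether any of these adenosines was methylated was not measured by these counts.

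Most splicing factor transcripts were present at lower levels in the YTHDF2 IP libraries than in the input. Of the 64 members with enough counts to be tested, 31 (48.4%) were depleted and 1 (1.56%) was enriched, where a call needed a change of more than 2-fold with the adjusted p-value below 0.05. Among all 19601 genes tested, 14% were depleted and 15.2% were enriched. Depletion was thus more common among the members than in the whole table, and enrichment was rarer. Without regard to fold, 55 members passed the adjusted p-value as lower in IP and 5 as higher, against 30.1% and 28.5% of all genes. In both IP libraries taken alone 58 of the 64 lay under the input, compared with 45.3% of all genes. The median log2 fold change of the members was −0.97, which is 1.96-fold lower in IP, with quartiles at −1.36 and −0.49, and the median of all genes was 0.0065. Together the 66 genes took 2.12% of the input counts, 1.23% of IP replicate 1 and 1.25% of IP replicate 2.

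**Figure D1:**
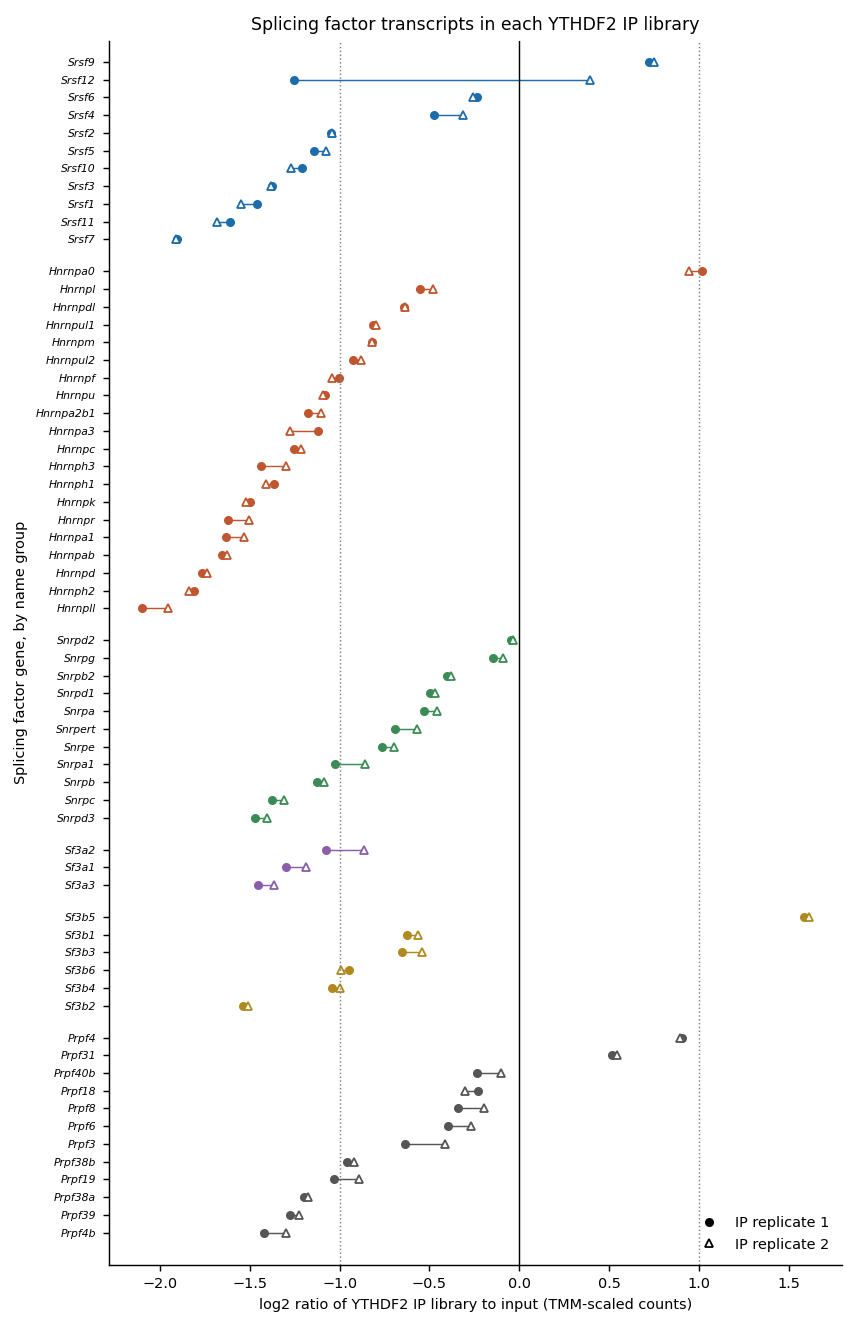
Log2 ratio of each YTHDF2 IP library to the input (x axis, TMM-scaled counts with 0.5 added) for 63 of the 64 tested members (y axis, ordered within name groups). Filled circles are IP replicate 1, open triangles are IP replicate 2, and dotted lines mark 2-fold. Most lie left of 0 in both libraries, 5 lie right of it in both and Srsf12 lies on both sides.

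The 2 IP libraries lay close together. The median absolute difference between their log2 ratios was 0.0577 over the members, and only Srsf12, the member with the lowest counts among those tested, differed by as much as 1.65. Of the 31 depleted members, 30 were over 2-fold lower in each IP library alone. The exception was Sf3b4, at −1.04 and −0.996 on the log2 scale. Both ratios of a gene were taken to the same input library, so an error in the input would move them together. The number of calls rested on the small spread between the 2 IP libraries. When the dispersion was set at 0.1 rather than the estimated 0.00538, 12 members and 1531 of all 19601 genes were called depleted. Sf3b5 lost its call. The members that kept theirs were Srsf1, Srsf7, Srsf11, Hnrnpa1, Hnrnpab, Hnrnpd, Hnrnph2, Hnrnpk, Hnrnpll, Hnrnpr, Snrpd3 and Sf3b2.

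Among the SR proteins, 7 of 11 (63.6%) were depleted, against 14% of all genes, and the median log2 fold change was −1.11. Srsf7 had the lowest value of the group. It fell from 11708 counts to 3186 and 3227 in the first and second IP library, at −1.91 ± 0.063 (SE) on the log2 scale (adjusted p-value 2.02e-41). Both IP libraries stood far below the input and differed little from each other. Srsf11, an SR-related factor, went from 8860 counts to 2965 and 2859, at −1.64 ± 0.066 (SE). Srsf1, the classical SR protein also called SF2/ASF, went from 21256 counts to 7878 and 7526, at −1.504 ± 0.054 (SE). Srsf2 (SC35), the SR gene with the highest mean count per library total and about level with Srsf5 by that measure, went from 26308 counts to 12974 and 13202, at −1.05 ± 0.051 (SE), which is close to the threshold. Its call was lost under total count scaling (−0.95) and TPM scaling (−0.90), and exons of Mfsd11 overlap 15.9% of its exonic bases. The other depleted SR genes were Srsf3, Srsf5 and Srsf10, between −1.38 and −1.11.

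The SR gene that stood apart was Srsf9, a close relative of Srsf1. It rose from 5679 counts to 9553 and 9908, which is 1.67-fold, or 0.74 ± 0.063 (SE) on the log2 scale (adjusted p-value 1.36e-17). Both IP libraries were above the input, whereas both were below it for Srsf1. The difference between these relatives was not tested. Of the exonic bases of Srsf9, 29.7% overlap those of Gatc, where reads shared by both genes were not counted. Srsf4, Srsf5 and Srsf6, which resemble each other in having a pair of RNA recognition motifs before a long RS domain, were all lower in IP, by different amounts. Srsf6 went from 16309 counts to 14135 and 14114, at −0.25 ± 0.053 (SE). Srsf4 went from 1248 counts to 916 and 1041, at −0.39 ± 0.114 (SE), with 34.7% of its exonic bases under exons of Gm12992. Srsf5 went from 26847 to 12398 and 13165, at −1.11 ± 0.051 (SE), a call lost under TPM scaling (−0.96) and with a trend on exons per kilobase (exon density) removed (−0.91). Removal of a GC trend put Srsf6 above 0, at 0.21, and brought the depleted SR genes from 7 to 3, namely Srsf2, Srsf7 and Srsf11. Srsf12 had only 66 input counts against 28 and 90 in IP, on opposite sides of the input, and its adjusted p-value was 0.736.

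For the hnRNP genes 14 of 20 (70%) were depleted, against 14% of all genes, and the median was −1.22. All 20 passed the adjusted p-value, 19 of them lower in IP, where 30.1% of all genes passed as lower. Hnrnpll, a regulator of CD45 splicing in lymphocytes, had the lowest value of all members, with 2087 input counts against 496 and 556 in IP. It was 4.08-fold lower in IP, or −2.03 ± 0.113 (SE) on the log2 scale (adjusted p-value 2.1e-27). Its relative Hnrnpl, which binds CA-rich RNA, went from 24615 counts to 17124 and 18248 and stayed at −0.52 ± 0.051 (SE). Both genes were lower in each IP library, by very different amounts, and that difference was not tested.

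The hnRNP D group showed a like spread. Hnrnpd (AUF1), a binder of AU-rich elements, went from 17868 counts to 5366 and 5543, at −1.75 ± 0.056 (SE). Hnrnpab went from 47825 counts to 15468 and 16051, at −1.64 ± 0.047 (SE), while Hnrnpdl went from 10542 to 6902 and 7021, at −0.64 ± 0.059 (SE). In the hnRNP F/H group, whose proteins bind runs of G, Hnrnph2 on the X chromosome went from 3633 counts to 1055 and 1053, at −1.83 ± 0.088 (SE). Hnrnph1, Hnrnph3 and Hnrnpf lay higher, at −1.39, −1.36 and −1.02. Of the exonic bases of Hnrnph3, 51.9% overlap Rufy2, of Hnrnpab 28.4% overlap Phykpl and of Hnrnpdl 19.8% overlap Enoph1.

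In the hnRNP A/B group, which holds some of the most abundant RNA-binding proteins of the nucleus, 1 gene went against the rest. Hnrnpa0 rose from 19788 counts to 40814 and 39513. The rise was 1.97-fold, or 0.98 ± 0.050 (SE) on the log2 scale (adjusted p-value 1.34e-29), just under the threshold. Under total count scaling (1.08), TPM scaling (1.13) or no filter on low counts (1.01) it passed. Hnrnpa2b1, the member with the most counts, went from 54862 to 24796 and 26435, at −1.14 ± 0.046 (SE). Hnrnpa1 went from 47544 counts to 15634 and 17028, at −1.58 ± 0.048 (SE), and Hnrnpa3 from 5590 to 2622 and 2388, at −1.20 ± 0.074 (SE). Hnrnpa0 thus rose where Hnrnpa1, Hnrnpa2b1 and Hnrnpa3 fell, in each IP library. It is also the hnRNP gene without introns, as its RefSeq transcript is a single exon. The remaining hnRNP genes, among them Hnrnpk, Hnrnpr, Hnrnpc, Hnrnpu and Hnrnpm, lay between −1.56 and −0.81. With the GC trend removed 10 hnRNP genes were depleted, and the call was lost for Hnrnpa2b1 (−0.51), Hnrnpa3 (−0.63), Hnrnpc (−0.65), Hnrnpf (−0.63), Hnrnpr (−0.97) and Hnrnpu (−0.54) and gained for Hnrnpul1 (−1.03) and Hnrnpul2 (−1.004). TPM scaling also ended the calls of Hnrnpa2b1 (−0.99), Hnrnpf (−0.87) and Hnrnpu (−0.94), and total count scaling those of Hnrnpf (−0.93) and Hnrnpu (−0.99). Hnrnpf lost its call as well without the filter on low counts (−0.999) and with the length trend removed (−0.99).

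The Snrp genes moved less. Of 11 tested, 3 (27.3%) were depleted, against 14% of all genes, and the median was −0.63. With so few genes the share stands little above that of the whole table. The core Sm proteins, which occur together in the same ring, spanned a wide range. Snrpd3 went from 9733 counts to 3588 and 3813, at −1.44 ± 0.064 (SE), and Snrpb from 10697 to 5008 and 5211, at −1.11 ± 0.061 (SE). In contrast, Snrpd2 had 8943 input counts against 8845 and 9051 in IP, and its −0.04 ± 0.059 (SE) did not pass (adjusted p-value 0.594). Snrpg, at 5817, 5374 and 5667 counts, was at −0.12 ± 0.066 (SE) and did not pass either (adjusted p-value 0.129). Snrpd1 (−0.49) and Snrpe (−0.73) lay between these values and passed the adjusted p-value. The call of Snrpb was lost under TPM scaling (−0.95) and with the exon density trend removed (−0.74). TPM scaling, which moved the median of all genes up by 0.151, put Snrpd2 at 0.11 and Snrpg at 0.04, and total count scaling, which moved it by 0.0959, put Snrpd2 at 0.06, so the sign of these values near 0 follows the scaling chosen.

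Among the proteins particular to 1 U particle, Snrpc, of U1, went from 7665 counts to 3010 and 3206, at −1.34 ± 0.067 (SE), and lost its call with the exon density trend removed (−0.92). Snrpb2, of U2, went from 3945 counts to 3041 and 3136, at −0.39 ± 0.075 (SE), and reached 0.23 with the GC trend removed. Its U1 relative Snrpa was at −0.49, and Snrpa1, of U2, was at −0.94. Snrpert, which the annotation lists as a pseudogene although its symbol lacks "-ps", was at −0.63 with 458 counts in the input. The remaining Snrp genes could not be tested. Snrpf had 11 counts in the input and 0 in each IP library, where a count of 0 allows up to 3 counts, or 0.0851 and 0.0836 CPM. Snrpn, an imprinted gene encoding the tissue-restricted SmN, had 2, 5 and 1 counts. Exons of other genes overlap 84.5% of the exonic bases of Snrpf and 72.3% of those of Snrpn, and the part of this overlap in the low counts was not tested.

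The SF3A complex was lower in IP for each of its 3 subunits. Sf3a3 went from 4317 counts to 1604 and 1733, at −1.41 ± 0.080 (SE), and Sf3a1 from 8269 to 3425 and 3752, at −1.24 ± 0.066 (SE). With the exon density trend removed Sf3a3 was at −0.75 and no longer depleted. Sf3a2 went from 5216 counts to 2527 and 2966, at −0.97 ± 0.075 (SE), just short of 2-fold. With the GC trend removed Sf3a2, whose transcript has the highest GC content among the members at 62.0%, reached −1.78.

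The Sf3b genes went in both directions. Sf3b5, the small SF3b10 subunit (chr10:13008450-13009183, plus strand), rose from 5199 counts to 15912 and 16475. It was 3.03-fold enriched, or 1.60 ± 0.061 (SE) on the log2 scale (adjusted p-value 3.63e-37), and its single exon overlaps no other gene. Both IP libraries stood above the input by nearly the same amount. With the fixed dispersion its adjusted p-value was 0.051, and with the GC trend removed its value was 1.06. The other 5 genes named Sf3b were lower in IP, and 2 of them were depleted. Phf5a, an SF3B subunit outside the name groups that was added here after its value was seen, went from 3598 counts to 7176 and 7119, at 0.95 ± 0.069 (SE). Sf3b2, which contacts pre-mRNA near the branch point, went from 12276 counts to 4315 and 4455, at −1.53 ± 0.061 (SE). Sf3b4 went from 8784 counts to 4354 and 4561, at −1.02 ± 0.063 (SE), a call that was lost under total count scaling (−0.92), TPM scaling (−0.87), without the filter (−0.99) and with the exon density trend removed (−0.97). Sf3b6, the p14 subunit, went from 2564 counts to 1357 and 1336, at −0.97 ± 0.091 (SE). Sf3b3 and Sf3b1 were less affected. Sf3b3 went from 13532 counts to 8788 and 9618, at −0.60 ± 0.057 (SE). Sf3b1, the large scaffold around the branch point adenosine, went from 11179 counts to 7394 and 7844, at −0.59 ± 0.059 (SE), and with the GC trend removed it stood at 0.01.

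Among the PRPF genes 3 of 13 (23.1%) were depleted, against 14% of all genes, and the median was −0.52. In a group of this size that gap is little more than 1 gene. The U4/U6 components went both ways. Prpf4 went from 3201 counts to 6117 and 6162, at 0.90 ± 0.072 (SE), a 1.87-fold rise (adjusted p-value 4.67e-19). Prpf31 went from 1837 counts to 2678 and 2773, at 0.53 ± 0.087 (SE), and Prpf3, which binds PRPF4 in the same particle, went from 3101 to 2033 and 2407, at −0.52 ± 0.084 (SE). Prpf4 passed 2-fold under TPM scaling (1.05) and with the GC trend removed (1.09). Of the exonic bases of Prpf31, 43.2% overlap those of Gm15927. The large U5 proteins Prpf8 and Prpf6 were near the input, at −0.27 and −0.33.

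Prpf4b, a kinase of the tri-snRNP, had the lowest value of the PRPF group. It went from 3302 counts to 1256 and 1388, at −1.36 ± 0.088 (SE). The U1-associated Prpf39 went from 1420 counts to 597 and 628, at −1.25 ± 0.120 (SE), and Prpf38a, a factor of spliceosome activation, from 4486 to 1993 and 2057, at −1.19 ± 0.077 (SE). With the GC trend removed none of these genes passed 2-fold, at −0.78, −0.55 and −0.88, and Prpf38a was at −0.80 with the exon density trend removed. Prpf19, a ubiquitin ligase and the PRPF gene with the highest mean count, not scaled by length, went from 8963 counts to 4467 and 4990, at −0.96 ± 0.064 (SE), and passed 2-fold with the GC trend (−1.09) or the exon density trend (−1.03) removed. Prpf40b, at 2208, 1913 and 2130 counts, was at −0.17 ± 0.089 (SE) and did not pass the test (adjusted p-value 0.101). Prpf38b (−0.94) and Prpf18 (−0.27) were lower in IP without reaching 2-fold, although Prpf38b reached −1.20 with the exon density trend removed.

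**Figure D2:**
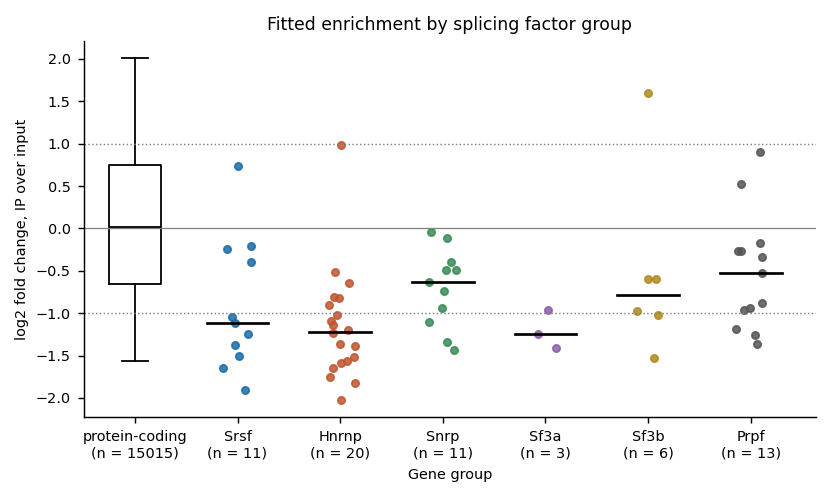
Fitted log2 fold change of YTHDF2 IP over input (y axis) for the tested members of each name group (points, with the group median as a bar) beside 15015 protein-coding genes with a RefSeq transcript (box of quartiles, whiskers at the 5th and 95th percentiles). Dotted lines mark 2-fold. The medians run from −1.24 for Sf3a to −0.52 for Prpf, and 1 gene in each of Hnrnp and Sf3b stands near or above the upper line.

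To see how far the pattern extended, 108 further splicing genes in 5 lists were counted in the same fit. Of these, 27 (25%) were depleted and 3 (2.78%) were enriched, against 14% and 15.2% of all genes, and the median log2 fold change was −0.52. Without regard to fold, 70 passed as lower in IP and 28 as higher, where all genes had 30.1% lower and 28.5% higher. Other regulators of splicing, such as PTB and MBNL proteins, had 10 of 25 depleted and a median of −0.75. Exon junction complex genes had 2 of 8 depleted and a median of −0.79, and SR-related proteins and their kinases 5 of 19 and −0.57. Other snRNP proteins had 6 of 33 depleted (18.2%) and a median of −0.30, and the proteins of the catalytic stage 4 of 23 (17.4%) and −0.45, both shares near the 14% of all genes. The 3 enriched genes, named after their values were seen, were Txnl4a, a U5 protein, at 1143 input counts against 5040 and 4932 in IP (2.09 on the log2 scale), Ppil1, at 7025, 19999 and 20890 (1.501), and Pcbp1, or hnRNP E1, at 25642, 54165 and 53708 (1.03). Pcbp1 has a single exon, like Hnrnpa0 and Sf3b5, whereas Txnl4a and Ppil1 have 4 exons each. Exons of Gm16286 overlap 29.0% of the exonic bases of Txnl4a.

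The exon structure of the members was then set beside that of 15015 protein-coding genes, using 1 RefSeq transcript per gene for 63 members. Of these 63, only Hnrnpa0 and Sf3b5 have a single exon, and they had the highest log2 fold changes of the members, 0.98 and 1.60. Snrpert, tested but without such a transcript, is also a single exon in the count table and was lower in IP, at −0.63. Among the 473 single-exon protein-coding genes 35.7% were enriched and 4.02% were depleted, with a median of 0.81. In genes with introns the members went apart from the rest of the table. The 10 members with 2 to 4 exons had a median of −0.996, with 5 depleted, whereas the 3022 protein-coding genes of that class had a median of 0.64, with 31.2% enriched and 5.63% depleted. The 20 members with 5 to 9 exons had a median of −0.99, compared with 0.0035 over 4709 genes. The 31 members with at least 10 exons had a median of −1.09, compared with −0.21 over 6811 genes. The median of the members thus varied little across the 3 classes with introns, while that of protein-coding genes fell by class. Across the 63 members the log2 fold change correlated with exon number at a Pearson r of −0.05 (Spearman rho −0.10), and across the 15015 protein-coding genes at −0.20 (−0.30). These values describe genes of the same 3 libraries, which are not independent replicates.

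**Figure D3:**
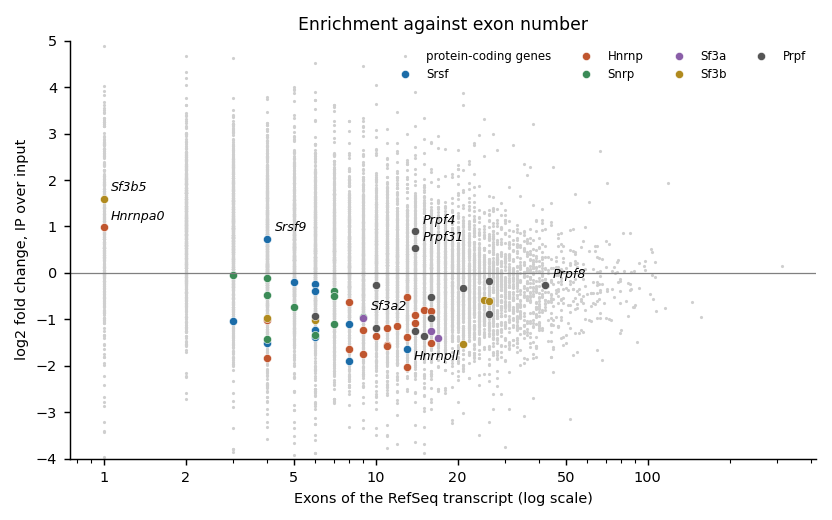
Fitted log2 fold change of YTHDF2 IP over input (y axis) against the number of exons of the RefSeq transcript (x axis, log scale) for 63 members (coloured by name group) and 15015 protein-coding genes (grey). The y axis is cut at −4 and 5. Hnrnpa0 and Sf3b5 are the members shown with 1 exon, at 0.98 and 1.60, and most members with introns lie below 0 at any exon number. Snrpert, with a single exon but no RefSeq transcript, is not shown.

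Base composition varied with the log2 fold change inside the group. The median GC content of the member transcripts was 46.4%, against 50.8% over protein-coding genes. Across the members GC content correlated with the log2 fold change at a Pearson r of 0.44 (Spearman rho 0.42), and across protein-coding genes at 0.34 (0.38). Among the 11 members under 42% GC, 9 were depleted and the median was −1.36, while protein-coding genes in that range had 33.2% depleted and a median of −0.70. Among the 19 members from 42 to 46% GC, 12 were depleted and the median was −1.11, against 24.1% and −0.45. Among the 12 members from 54% GC upward, 4 were depleted, Sf3b5 was enriched and the median was −0.44, against 4.16% depleted, 25.9% enriched and a median of 0.43. In each of the 5 ranges compared, the members had the lower median. The GC trend that was removed was fitted on all exonic bases of a gene in the count table, not on the RefSeq transcript. After its removal the median of the members was −0.72, with 23 of 64 depleted and 12 above 0. Of all 19601 genes 2433 were depleted under that setting. How much of the depletion goes with GC content was not tested further.

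**Figure D4:**
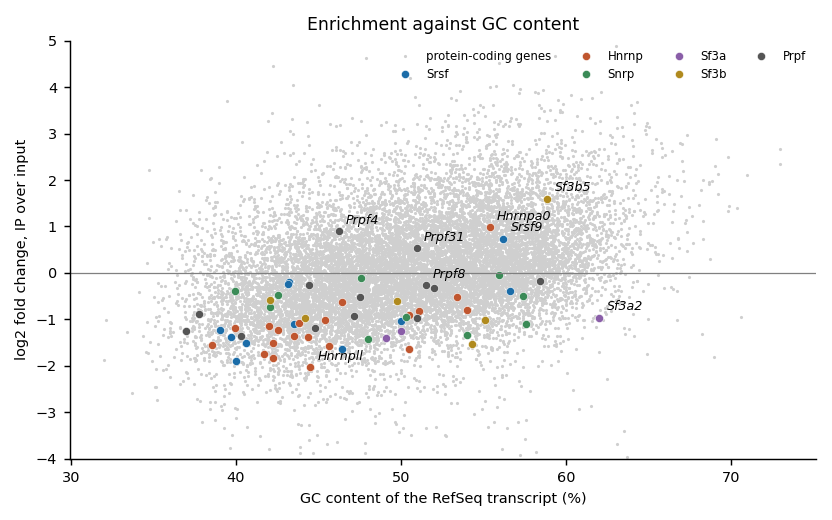
Fitted log2 fold change of YTHDF2 IP over input (y axis, cut at −4 and 5) against the GC content of the RefSeq transcript (x axis, %) for 63 members (coloured by name group) and 15015 protein-coding genes (grey). Both rise with GC content, with a Pearson r of 0.44 over the members and 0.34 over protein-coding genes, and the members lie lower.

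Input level was compared next, because the members are abundant. On the RPKM scale, which divides by library total and exonic length, the members with a RefSeq transcript had a median input level of 70.4, against 4.49 for protein-coding genes, and the highest were Hnrnpab at 508 and Hnrnpa1 at 486. Among protein-coding genes above 100 RPKM, 23.8% were depleted and the median was −0.53, while 15 of the 26 members in that range were depleted, with a median of −1.08. Between 30 and 100 RPKM, 11 of 23 members were depleted, with a median of −0.97, against 21.3% and −0.37. Between 10 and 30 RPKM, 3 of 10 members were depleted, with a median of −0.39, against 15.7% and −0.10. At each of these levels the median of the members was lower.

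The GGAC motif was searched on the transcript strand only. It occurred within 200 bases of the stop codon in 49 of the 63 member transcripts (77.8%) and in 81.1% of protein-coding transcripts. Per kilobase of transcript the members had a median of 3.29 GGAC, against 4.25, and the density correlated with the log2 fold change at a Pearson r of 0.33 (Spearman rho 0.33) over the members and 0.25 (0.27) over protein-coding genes. GGAC is itself rich in G and C, so this density is tied to GC content.

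Annotated splice variants were more common among the members. In the GENCODE annotation 31 of 64 tested members (48.4%) had a transcript marked for nonsense-mediated decay, against 26.2% of protein-coding genes, and 47 (73.4%) had a transcript with a retained intron, against 54.3%. Members with a transcript marked for decay had a median log2 fold change of −1.09, with 17 of 31 depleted, and those without of −0.96, with 14 of 33 depleted. The same medians over protein-coding genes were −0.13 and 0.07, with 581 of 3868 and 1320 of 10917 genes depleted. For retained introns the medians were −0.97 and −0.88 over the members and −0.13 and 0.24 over protein-coding genes. The counts do not separate these variants from the main mRNA. Exons of other genes overlapped over 10% of the exonic bases in 9 members. The 48 members without any overlap had a median of −0.95, with 21 depleted, where 14% of all genes were depleted.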

How the data were processed

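Counts of 3 RIP-seq libraries were used. Per the methods the IP was done on cleared lysate, whereas the labels describe Trizol RNA. Reads had been aligned by the authors with HISAT2 to mm10. The deposited values are raw counts over RefSeq exons from featureCounts 2.0.3. Mates were counted singly, strand was not used, and reads mapping to several places or genes were left out by default. This lowers the counts of overlapping genes and of genes with near-identical copies. Counts were analysed with edgeR 4.0.16 in R 4.3.3, with filterByExpr (19601 genes), TMM factors of 0.957, 1.02 and 1.02, and the robust quasi-likelihood F test with Benjamini-Hochberg adjustment over all tested genes. There was 1 residual degree of freedom, from the IP libraries, and the fit moderated the spread of each gene with that of other genes. Each SE was the absolute log2 fold change divided by the square root of the F statistic. It holds no variation between inputs. Log2 ratios of single libraries added 0.5 to counts. RPKM was used for levels between genes. A floor of 3 counts covers counting error only.

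Every member was counted. Named with values were, per group, the 3 members with the highest and the 3 with the lowest log2 fold change at a mean of 10 CPM or more, the most abundant member, every Sf3a and Sf3b gene, members on both sides of the input, untested members, and relatives of a named gene. Relatives were taken from general knowledge, since protein identity was not computed. Others were named to account for the members, and 1 of them is counted but not reported here by name. The members and lists were chosen with earlier results of these data known. The 12 alternatives listed beforehand covered scaling, filter, dispersion, DESeq2 1.42.0, halved counts, each IP library, mitochondrial genes, GC and length.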

Additional observations from a re-analysis of the deposited data

How the results depend on the processing

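The members stayed mostly below 0, with 52 to 59 of 64 lower in IP over all alternatives tried. The 31 depletions became 12 under a fixed dispersion of 0.1 and were between 23 and 32 under the other alternatives with a test. Among all genes tested, 2743 depletions became 1531 and were between 1999 and 2839. Leaving out an IP library leaves 1 against 1, where no call was made. Enrichment was called for 1 member, and for 2 under total count scaling, 3 under TPM scaling, 2 without the filter on low counts, 2 with the GC trend removed and 0 under the fixed dispersion. The median of −0.97 was −0.87 under total count scaling, −0.82 under TPM scaling, −0.72 with the GC trend removed and −0.90 with a trend on exons per kilobase removed, the last chosen after seeing the data. Leaving out either IP library gave −1.03 to −0.96. TPM scaling raised the median of all genes by 0.151, and 62.4% of its calls were enrichments, against 52.0% under TMM. Relative to the median of all genes, which a scaling moves along with the members, they lay at −0.69 with the GC trend removed.

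Signs changed for 11 members, the lowest of them Snrpb2 (−0.39), Snrpd1 (−0.49) and Sf3b1 (−0.59), which had passed the adjusted p-value. With the GC trend removed Srsf12 was at 0.061, Srsf6 at 0.21, Snrpg at 0.00089, Snrpb2 at 0.23, Snrpd1 at 0.015, Sf3b1 at 0.015 and Prpf18 at 0.071. With the exon density trend removed Snrpd2 was at 0.23, Snrpg at 0.56, Prpf40b at 0.23, Prpf8 at 0.028 and Prpf6 at 0.079. Snrpd2 was at 0.057 under total count scaling and 0.11 under TPM scaling. Snrpg was at 0.036 under TPM scaling and 0.089 with the length trend removed. The cause of these changes was not tested. No paired analysis was possible because there is only 1 input, without a number of its own. With 1 input library, variation between inputs was not measured, and among the tested members counts were lowest for Srsf12.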
